A study of Rattus norvegicus with 9 samples.

Results

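The transcripts described here are those of the cytosolic ribosomal protein genes, measured in cultured primary rat Schwann cells. Members were chosen by symbol alone: Rpl or Rps followed by a number with an optional suffix, together with Rplp0, Rplp1, Rplp2 and Rpsa, leaving out the Rps6k kinases and pseudogenes. The suffixes taken were a, x, l, al, and y with or without a number, so Rps4y2 was counted while Rpl7l1, Rpl26l1 and Rpl39l1 were not. A gene was used only where a probe set of the array was annotated to exactly 1 gene, and where a gene had several such probe sets the one with the highest mean was taken. This gave 45 members, 30 of the large (60S) subunit and 15 of the small (40S) subunit, of 14213 genes in all. The symbol rule matches 80 rat genes in RefSeq, so 35 were not measured by a probe set of their own. Of those, 27 are listed on probe sets that name several genes, which are described as a set further on. Rps19, Rplp1 and Rplp2 are among the genes without a probe set of their own.

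Schwann cells, the glia of peripheral nerve, wrap and myelinate axons, and these were labelled as coming from sciatic nerve. Cells of the NF1 RNAi + U0126 group were transiently transfected with RNAi oligonucleotides against Nf1 and treated with U0126, which blocks MEK, the kinase upstream of ERK. Cells of the NF1 RNAi group received the same oligonucleotides without the inhibitor, and cells of the Control RNAi group received scrambled oligonucleotides. Nf1 encodes neurofibromin, a GTPase-activating protein that turns Ras off. RNA was harvested at 48 hours, and each group held 3 independent replicates with 1 Affymetrix array each, 9 arrays in all. Control cells given U0126 were not analysed here, so the inhibitor was measured in NF1 RNAi cells. Levels are log2(intensity + 1) of the deposited values, and the 3 arrays of a group are given in the order of replicates 1, 2 and 3. Fold changes are log2 differences ± the standard error of a limma fit over all 9 arrays (n = 3 per group), and p-values of that fit were adjusted by the Benjamini-Hochberg method over 14213 genes, with 0.05 as the threshold.

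Cytosolic ribosomes are built in the nucleolus and cytoplasm from ribosomal RNA and ribosomal proteins, each of which is needed in about equal number, so the genes are expressed together and at high levels. Most vertebrate ribosomal protein mRNAs begin with a C followed by a run of pyrimidines, the terminal oligopyrimidine (TOP) motif, through which mTORC1 and the RNA-binding protein LARP1 control their translation and their stability. Ras signalling reaches ribosome production through ERK, its kinases RSK and its target MYC as well as through mTORC1, and Rps6 itself is the substrate that gave the S6 kinases their name.

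The start of the transcript was not used in the choice of members, and some of them have a pyrimidine run there. The sequences below run from 10 bases before the annotated transcription start to 20 bases from it, taken from RefSeq promoter sequences of the rat assembly GRCr8 and read 5′ to 3′ on the strand of the gene. A pyrimidine run that begins at the annotated start is in capitals. Rpl35a and Rps15, which fell with NF1 RNAi, and Rplp0, which did not pass the test, are examples with the run. The last 5 are all the members that were lower than Control RNAi in both groups with NF1 oligonucleotides, of which Rpl28 has the run at the annotated start and the other 4 do not.
Rpl35a, chr11:81235002-81235031, minus strand: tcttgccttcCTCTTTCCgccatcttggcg
Rps15, chr7:10068096-10068125, minus strand: acaccgcttcCTTTTCCCagcagccgccaa
Rplp0, chr12:46718371-46718400, minus strand: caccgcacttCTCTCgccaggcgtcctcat
Rpl28, chr1:78083513-78083542, minus strand: cccctagtgtCTTTCTTTCCgtctccggcc
Rpl6, chr12:41011671-41011700, minus strand: ttacatcactagatggcgggtgaaaaggcg
Rpl12, chr3:36661930-36661959, plus strand: aacatccgtcttttcggctttcggttcgga
Rpl3, chr7:113507971-113508000, minus strand: gcctgctcgatctctatcggcggcgtgtgg
Rps4y2, chr4:183000903-183000932, plus strand: cagctctcctcactcgcttgtgctctggga
The motif searched was a C followed by at least 4 bases that are each C or T. Of the 45 members, 40 had a sequence in this table, and 12 of the 40 (30%) had the run at the annotated start, against 2.63% of the 27457 genes in the table and 2.44% of its 19005 protein-coding genes. With the run allowed to begin within 5 bases of the annotated start, 22 members (55%) had it, against 17% of all genes and 16.4% of protein-coding genes. On the opposite strand, within the same distance, 4 members (10%) had it, against 20.4% of all genes. The 12 runs at the start were 5 to 12 bases long. An annotated start can lie several bases from the one used in these cells, so a missing match says only that these letters are not at that position.

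The arrays were close in overall signal, as quantile normalization makes them, with median intensities from 95.0 to 97.1. Nf1 differed by −1.05 ± 0.13 between NF1 RNAi and Control RNAi cells (adjusted p = 0.000695), and was lower on every array with NF1 oligonucleotides than on every control array. Of the Schwann cell markers, 7 were measured, and 6, 6 and 7 of them had means of log2 6 or more in NF1 RNAi + U0126, NF1 RNAi and Control RNAi cells, with S100b, Sox10 and Ngfr above log2 11 in every group. Their summed log2 level was 69.9 to 71.4 with NF1 RNAi + U0126, 71.7 to 75.5 with NF1 RNAi and 75.1 to 77.0 with Control RNAi. With NF1 RNAi the myelin gene Pmp22 (−1.96 ± 0.36, adjusted p = 0.00407) and Egr2, a transcription factor of myelination (−1.02 ± 0.14, adjusted p = 0.000985), fell and S100b rose (0.79 ± 0.07, adjusted p = 0.000136). With U0126 against NF1 RNAi, Gfap, Erbb3, Egr2 and S100b fell, with log2 fold changes of −1.29, −1.08, −0.56 and −0.38 (adjusted p = 0.0286, 0.0122, 0.03 and 0.00987). All 3 endothelial and all 4 neuronal markers were below log2 6 in each group's mean, and of these only Rbfox3 passed a test, as higher with NF1 RNAi (0.30 ± 0.08, adjusted p = 0.0289). Fibroblast markers were mixed, with Col1a1 and Col3a1 above log2 10 and Dcn and Lum below 5, and Col3a1 fell with NF1 RNAi (−2.06 ± 0.36, adjusted p = 0.00346). The summed log2 level of the 6 fibroblast markers was 42.6 to 44.5 with NF1 RNAi + U0126, 42.9 to 44.9 with NF1 RNAi and 44.7 to 45.5 with Control RNAi. That of the 6 macrophage markers was 34.6 to 35.7, 33.6 to 34.2 and 32.9 to 33.6 in the same order. Ptprc and Csf1r were below log2 5 and Itgam below 6, while Aif1 and Laptm5 were above 6 in every group and Cd68 averaged 6.92, 6.02 and 5.85. Cd68 rose with U0126 against NF1 RNAi (0.90 ± 0.12, adjusted p = 0.00147) and Laptm5 rose with NF1 RNAi (0.33 ± 0.06, adjusted p = 0.00336). The part of these markers in the results on ribosomal proteins was not tested.

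Most members gave a strong signal. In 38 of the 45 the mean over the 9 arrays was log2 12 or more, from 12.46 to 14.06. Another 3 lay between log2 6 and 12, namely Rps27l, Rpl39 and Rps4y2. The remaining 4, Rpl28, Rpl30, Rps13 and Rpl3l, were below log2 6, where signal not due to the named gene weighs more. Probe sets differ in how brightly they report a transcript, so no order of abundance among the genes was read from these values.

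Ribosomal protein transcripts were lower in NF1 RNAi cells than in Control RNAi cells, by a small amount per gene. Of the 45 members, 17 fell and 0 rose, so that 37.8% were lower, against 13.3% of all genes lower and 13.0% higher. At an unadjusted p under 0.05, limma placed 30 members lower (66.7%, against 18.0% of all genes) and 0 higher (against 18.6%). The log2 fold change was negative in 43 members, with a median of −0.21 (−13.6% in intensity), the middle 50% of members between −0.27 and −0.14 and a range of −0.76 to 0.16. The median over all genes was 0.02. In these bulk samples, fewer cells of a type and less RNA per cell cannot be told apart.

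**Figure D1:**
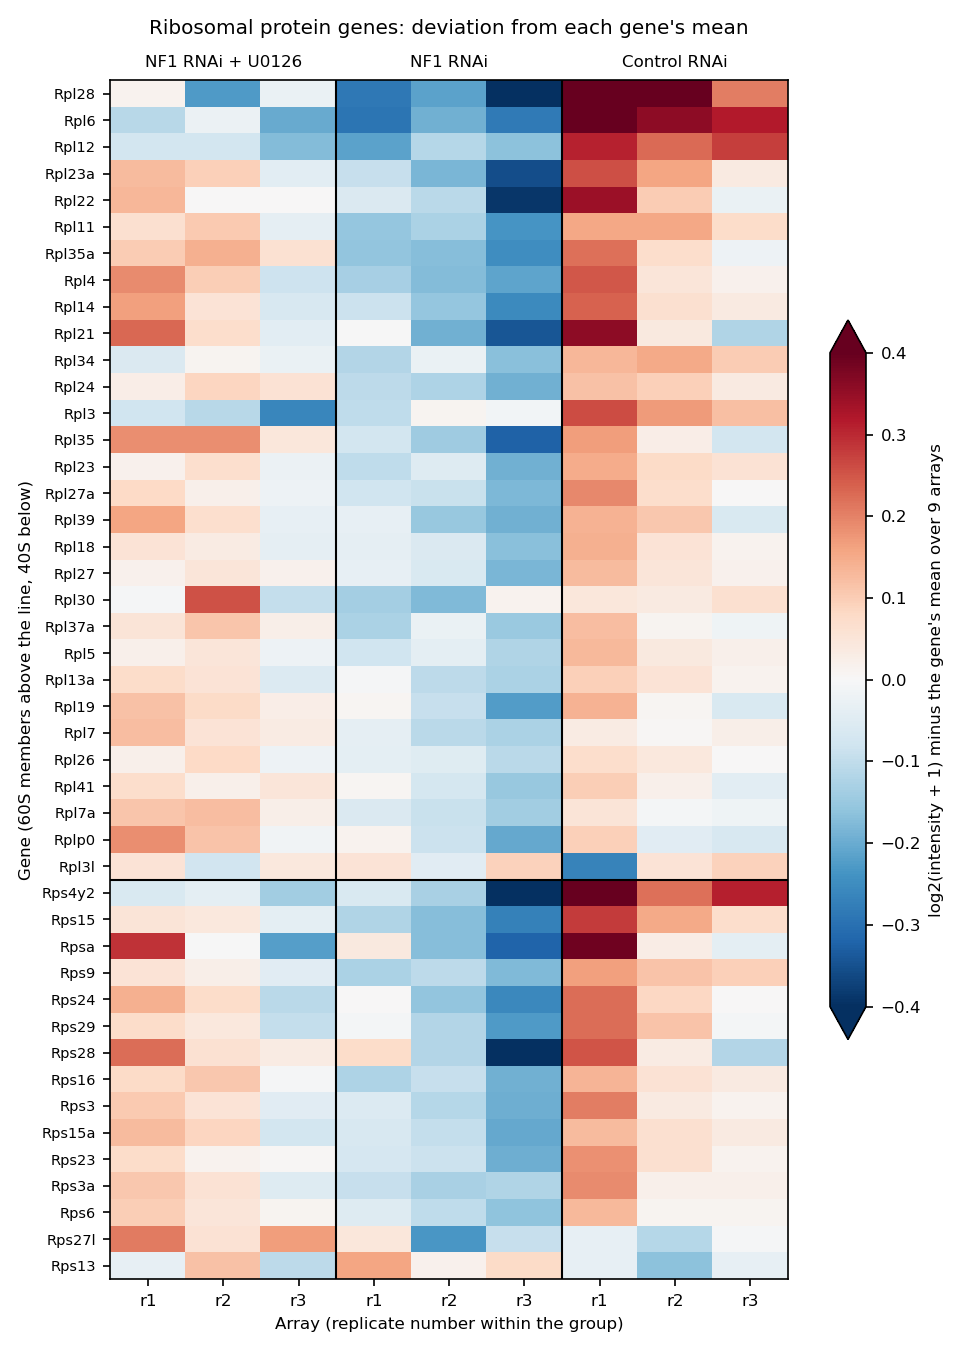
Each cell is the log2(intensity + 1) of a member on an array minus that gene's mean over the 9 arrays, with 60S members above the line and 40S members below it, ordered by the NF1 RNAi against Control RNAi difference. NF1 RNAi replicate 3 is the lowest of the 9 arrays in 37 of 45 members and Control RNAi replicate 1 the highest in 32. The colour scale ends at 0.4, and values past it are drawn in the end colour.

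Both subunits had the same median. Among 60S members 13 of 30 fell (43.3%), with a median of −0.21. Among 40S members 4 of 15 fell (26.7%), also with a median of −0.21, where 13.3% of all genes were lower. The 3 arrays of NF1 RNAi cells lay below all 3 arrays of Control RNAi cells in 32 of the 45 members, against 20.0% of all genes. Only 3 members differed by 0.5 or more, which were Rpl28, Rpl6 and Rps4y2. No member differed by as much as 1.

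The shift was also read array by array, as the median deviation of the 45 members from their own means. It was 0.08, 0.06 and −0.03 in NF1 RNAi + U0126 cells, −0.07, −0.11 and −0.19 in NF1 RNAi cells, and 0.16, 0.06 and 0.01 in Control RNAi cells. The NF1 RNAi arrays were the 3 lowest of the 9, while the other groups overlapped each other. Within every group replicate 3 was the lowest array in 37 of the 45 members, and replicate 1 was the highest in 30, 32 and 39 members in NF1 RNAi + U0126, NF1 RNAi and Control RNAi cells. The gap in log2 level between the actin control probe sets at the 3′ and the 5′ end, which widens as RNA degrades, was 0.85, 0.86 and 0.87 in NF1 RNAi + U0126 cells, 0.85, 0.78 and 0.84 in NF1 RNAi cells, and 0.90, 0.62 and 0.60 in Control RNAi cells. The same gap of the Gapdh control probe sets was −0.06, −0.05 and −0.06 in NF1 RNAi + U0126 cells, −0.02, −0.06 and −0.10 in NF1 RNAi cells, and 0.06, −0.06 and −0.11 in Control RNAi cells, so the groups overlapped. The part of RNA quality in the member shift was not tested.

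Samples with the same replicate number deviated together, and with that number as a block 28 members fell with NF1 RNAi (17 of the 60S and 11 of the 40S subunit), or 62.2%, against 16.2% of all genes. By subunit that was 56.7% of 60S and 73.3% of 40S members, the reverse order of the shares without the block. The count without the block rested partly on single arrays. It was 7 without NF1 RNAi replicate 3 (15.6% of members, against 9.86% of all genes), 9 without Control RNAi replicate 2 (20.0%, against 11.2%), 11 without Control RNAi replicate 1 (24.4%, against 13.2%) and 11 without NF1 RNAi replicate 1 (24.4%, against 10.2%). The member median stayed between −0.24 and −0.15 in those fits. The 7 members that passed without each of the 6 arrays in turn were Rpl6, Rpl12, Rpl28, Rpl11, Rps15, Rps9 and Rps4y2.

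With U0126 the members' differences from NF1 RNAi were mostly positive, but few passed the test singly. Compared with NF1 RNAi alone, 3 members rose, namely Rpl35, Rpl35a and Rpl24, and 0 fell. That is 6.67% of members, close to the 6.71% of all genes that were higher, with 7.02% of all genes lower. At an unadjusted p under 0.05, limma placed 20 members higher (44.4%, against 14.1% of all genes) and 0 lower (against 13.2%). The log2 fold change was positive in 42 of 45, with a median of 0.16 (11.8% in intensity), the middle 50% between 0.12 and 0.20 and a range of −0.11 to 0.32, against a median of 0.02 over all genes. All 3 U0126 arrays lay above all 3 NF1 RNAi arrays in 27 of 45 members, against 17.8% of all genes. This comparison and the one before it share the NF1 RNAi arrays, so the opposite signs are not independent of each other.

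With the replicate number as a block, 15 members rose with U0126 (11 of the 60S and 4 of the 40S subunit), or 33.3%, against 9.53% of all genes. They were Rpl11, Rpl14, Rpl21, Rpl23a, Rpl24, Rpl35, Rpl35a, Rpl39, Rpl4, Rpl7a and Rplp0, and Rps15, Rps16, Rps27l and Rps28. Without the block the calls rested on single arrays. None passed without NF1 RNAi replicate 2 or 3, or without NF1 RNAi + U0126 replicate 1 or 2. At unadjusted p under 0.05, limma placed 15, 7, 7 and 10 members higher in those fits, in that order. Those are 33.3%, 15.6%, 15.6% and 22.2% of members, against 11.7%, 12.3%, 13.0% and 11.8% of all genes. Without NF1 RNAi + U0126 replicate 3, 1 passed (Rpl11), and without NF1 RNAi replicate 1, 2 passed (Rpl35 and Rps27l). Of these only Rpl35 also passed with all arrays. At adjusted p under 0.05, 4.07%, 4.33%, 5.66%, 4.20%, 4.69% and 4.99% of all genes were higher in all those fits, in the same order. The member median was 0.13 to 0.20 across those fits.

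Between NF1 RNAi + U0126 and Control RNAi cells the median difference of the members was near 0, and a few were lower with NF1 RNAi + U0126. Against Control RNAi, 5 members were lower, namely Rpl28, Rpl6, Rps4y2, Rpl12 and Rpl3, and 0 were higher. That is 11.1% of members, against 17.6% of all genes lower and 17.9% higher. At an unadjusted p under 0.05, limma placed 6 members lower (13.3%, against 21.1% of all genes) and 1, Rps27l, higher (2.22%, against 23.5%). The median was −0.04, against 0.04 over all genes, with 31 members negative and 14 positive. When each array was centred on its median the member median turned to 0.04, with 13 negative and 32 positive, so its sign is not settled. All 3 NF1 RNAi + U0126 arrays lay below all 3 Control RNAi arrays in 8 members, against 21.7% of all genes.

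All 5 of those members had also fallen with NF1 RNAi alone, a comparison that shares the Control RNAi arrays. The other 12 that fell with NF1 RNAi did not pass against Control RNAi once U0126 was present, and their fold changes there ran from −0.15 to 0.01. Missing the threshold does not show that the control level was reached.

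**Figure D2:**
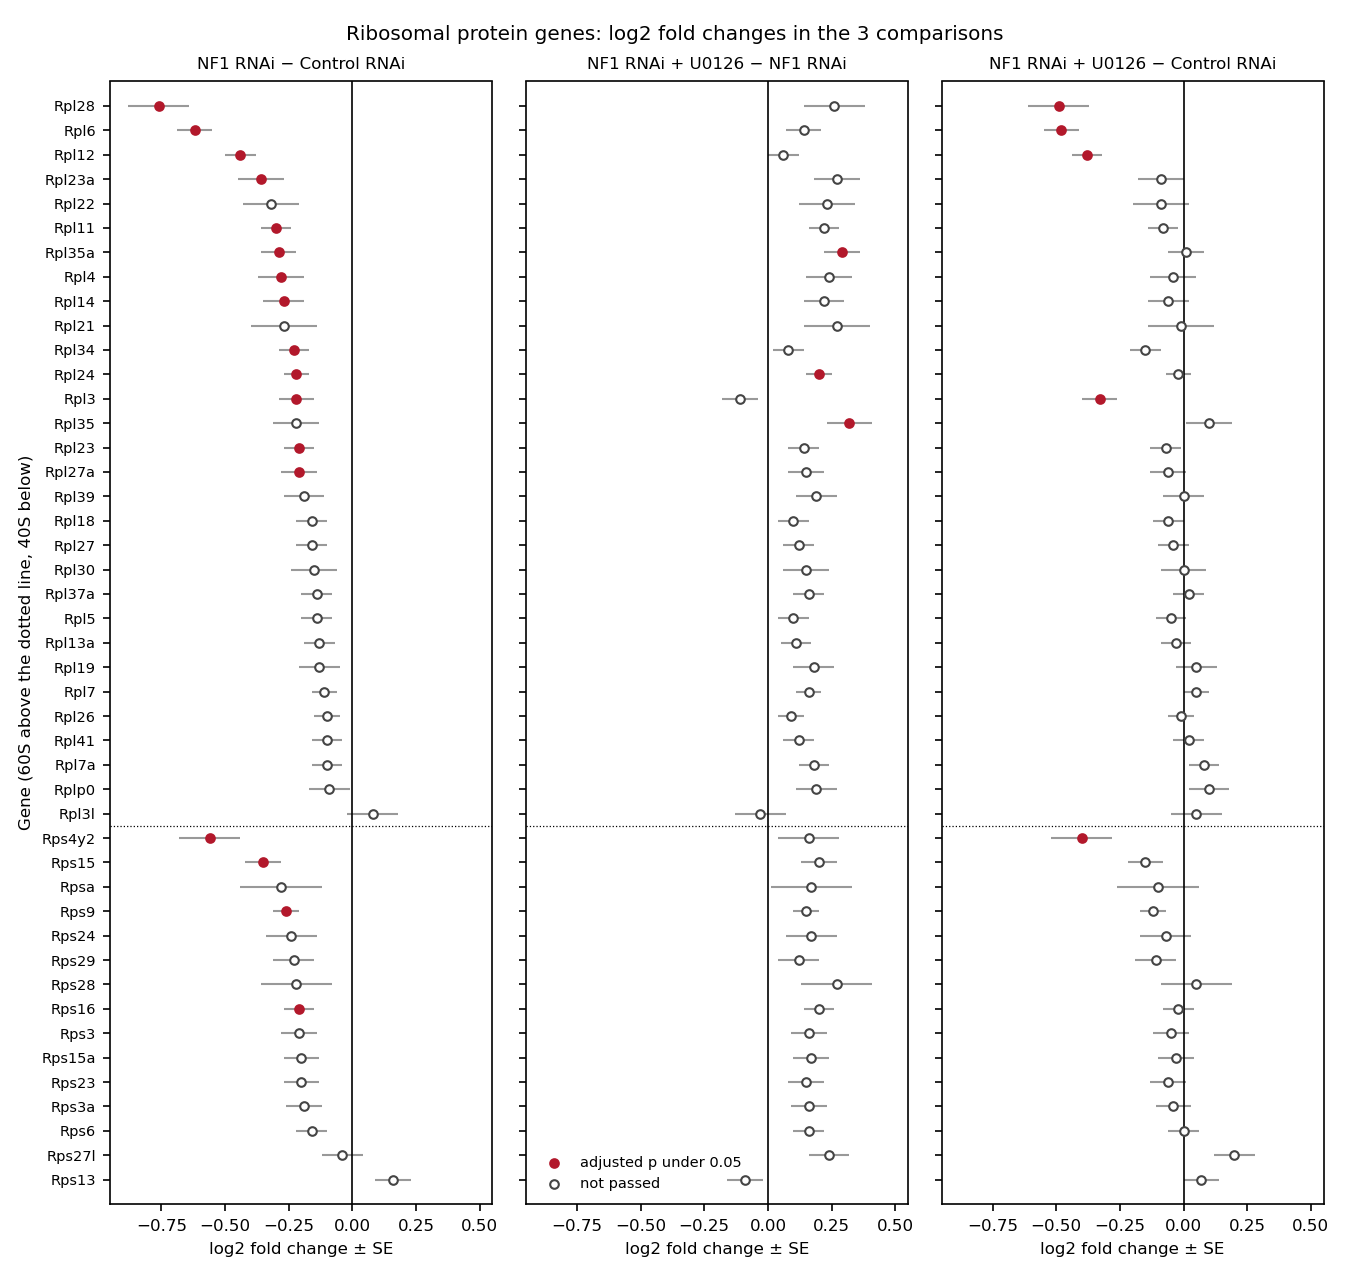
Points are log2 fold changes and bars ± the standard error of the limma fit for the 45 members in the 3 comparisons, with filled points at adjusted p under 0.05. The points lie left of 0 in 43 members for NF1 RNAi against Control RNAi, right of 0 in 42 for NF1 RNAi + U0126 against NF1 RNAi, and around 0 for NF1 RNAi + U0126 against Control RNAi apart from the 5 filled points.

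Rpl6, a 60S protein on the outer face of the subunit, showed the clearest difference among the bright members. Its level was 12.83, 12.92 and 12.74 in NF1 RNAi + U0126 cells, 12.65, 12.75 and 12.66 in NF1 RNAi cells, and 13.37, 13.30 and 13.26 in Control RNAi cells. Every array with NF1 oligonucleotides was below every control array, while the U0126 and NF1 RNAi arrays overlapped. Against Control RNAi, Rpl6 differed by −0.48 ± 0.07 in NF1 RNAi + U0126 cells (adjusted p = 0.000532) and by −0.62 ± 0.07 in NF1 RNAi cells (adjusted p = 0.000263). With U0126 it differed from NF1 RNAi by 0.14 ± 0.07 (adjusted p = 0.208).

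Rpl12, together with the Rplp proteins, forms the stalk that draws elongation factors to the ribosome. It read 13.07, 13.07 and 12.97 in NF1 RNAi + U0126 cells, 12.93, 13.03 and 12.98 in NF1 RNAi cells, and 13.45, 13.37 and 13.42 in Control RNAi cells. The arrays with and without U0126 overlapped, and all 6 lay under the control arrays. Its difference was −0.44 ± 0.06 for NF1 RNAi against Control RNAi (adjusted p = 0.000871), 0.06 ± 0.06 for U0126 against NF1 RNAi (adjusted p = 0.587) and −0.38 ± 0.06 for NF1 RNAi + U0126 against Control RNAi (adjusted p = 0.00105). Rplp0, the base of the same stalk and the only stalk phosphoprotein gene with its own probe set, did not pass in any comparison. Rplp0 read 13.88, 13.81 and 13.68 in NF1 RNAi + U0126 cells, 13.71, 13.61 and 13.49 in NF1 RNAi cells, and 13.79, 13.65 and 13.63 in Control RNAi cells. The groups overlapped, and the differences were −0.09 ± 0.08 with NF1 RNAi (adjusted p = 0.496) and 0.19 ± 0.08 with U0126 (adjusted p = 0.173, or 0.0445 with the replicate block, and 0.0445 to 0.383 over the 15 alternatives).

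Rpl3 lies beside the peptidyl transferase centre, where peptide bonds are made. Its level was 13.50, 13.47 and 13.32 in NF1 RNAi + U0126 cells, 13.48, 13.59 and 13.57 in NF1 RNAi cells, and 13.84, 13.75 and 13.70 in Control RNAi cells. It was the bright member whose U0126 arrays did not lie higher than the NF1 RNAi arrays on average. The difference against Control RNAi was −0.33 ± 0.07 with NF1 RNAi + U0126 (adjusted p = 0.00502) and −0.22 ± 0.07 with NF1 RNAi (adjusted p = 0.0454), the second of which did not pass when any 1 of the 6 arrays was left out. Between U0126 and NF1 RNAi it was −0.11 ± 0.07 (adjusted p = 0.332). A second, dimmer Rpl3 probe set gave −0.37, −0.31 and −0.07 for the same 3 comparisons. Rpl3l, the striated muscle relative of Rpl3, stayed between log2 5.50 and 5.86 on all arrays and passed no test.

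Rpl11 and Rpl5 bind the 5S ribosomal RNA, and in human and mouse cells the free particle inhibits Mdm2, the ubiquitin ligase of p53. Rpl11 read 13.17, 13.21 and 13.07 in NF1 RNAi + U0126 cells, 12.95, 12.98 and 12.87 in NF1 RNAi cells, and 13.26, 13.26 and 13.18 in Control RNAi cells. The NF1 RNAi arrays stood apart below both other groups, which overlapped. With NF1 RNAi alone Rpl11 fell by 0.30 ± 0.06 (adjusted p = 0.00703), and the difference with U0126 was 0.22 ± 0.06 (adjusted p = 0.0501, or 0.0234 with the replicate block, and 0.0234 to 0.157 over the 15 alternatives). Rpl5 moved less, with 13.62, 13.65 and 13.58 in NF1 RNAi + U0126 cells, 13.52, 13.56 and 13.48 in NF1 RNAi cells, and 13.73, 13.64 and 13.62 in Control RNAi cells. Its NF1 RNAi arrays were below those of both other groups, but the differences, −0.14 ± 0.06 with NF1 RNAi (adjusted p = 0.0946) and 0.10 ± 0.06 with U0126 (adjusted p = 0.305), did not pass. Whether Rpl11 and Rpl5 differ from each other was not tested.

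Several members sit around the tunnel through which the new peptide leaves. Rpl23a, at its exit and a contact of the signal recognition particle, read 13.22, 13.19 and 13.05 in NF1 RNAi + U0126 cells, 13.00, 12.91 and 12.74 in NF1 RNAi cells, and 13.35, 13.25 and 13.13 in Control RNAi cells. It fell by 0.36 ± 0.09 with NF1 RNAi (adjusted p = 0.0161, lost without NF1 RNAi replicate 3), and differed by 0.27 ± 0.09 with U0126 (adjusted p = 0.0804, or 0.0111 with the replicate block, and 0.0111 to 0.216 over the 15 alternatives). Its NF1 RNAi arrays lay below all others. Rpl35, also at the tunnel exit, had the largest rise with U0126. It read 13.59, 13.59 and 13.45 in NF1 RNAi + U0126 cells, 13.33, 13.26 and 13.08 in NF1 RNAi cells, and 13.57, 13.43 and 13.33 in Control RNAi cells. The U0126 arrays were all above the NF1 RNAi arrays and overlapped the control arrays. Rpl35 rose by 0.32 ± 0.09 with U0126 (adjusted p = 0.045, held in 1 of the 6 fits that leave out an array, the one without NF1 RNAi replicate 1), and with NF1 RNAi differed by −0.22 ± 0.09 from Control RNAi (adjusted p = 0.107, or 0.0199 with the replicate block, and 0.0199 to 0.304 over the 15 alternatives).

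Rpl4 and Rpl39 line the tunnel. Rpl4 was lower with NF1 RNAi at −0.28 ± 0.09 (adjusted p = 0.0443, held only without Control RNAi replicate 3 among the 6 fits that leave out an array). Rpl39, at 7.53, 7.44 and 7.34 in NF1 RNAi + U0126 cells, 7.34, 7.22 and 7.18 in NF1 RNAi cells, and 7.51, 7.48 and 7.31 in Control RNAi cells, differed by −0.19 ± 0.08 with NF1 RNAi (adjusted p = 0.117, or 0.0315 with the replicate block, and 0.0315 to 0.297 over the 15 alternatives). Its groups touched or overlapped.

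Rpl35a and Rpl24 were the members that passed in both directions. Rpl35a, one of the genes mutated in human Diamond-Blackfan anaemia, read 13.16, 13.20 and 13.12 in NF1 RNAi + U0126 cells, 12.90, 12.89 and 12.81 in NF1 RNAi cells, and 13.28, 13.13 and 13.04 in Control RNAi cells. The NF1 RNAi arrays were below all 6 others. Rpl35a differed by −0.29 ± 0.07 with NF1 RNAi (adjusted p = 0.0162, lost without NF1 RNAi replicate 3) and rose by 0.29 ± 0.07 with U0126 (adjusted p = 0.025, lost without any 1 of the 6 arrays).

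Rpl24, which forms a bridge to the 40S subunit, read 12.89, 12.95 and 12.92 in NF1 RNAi + U0126 cells, 12.76, 12.74 and 12.67 in NF1 RNAi cells, and 12.98, 12.96 and 12.90 in Control RNAi cells. Again the NF1 RNAi arrays were the 3 lowest. The differences were −0.22 ± 0.05 with NF1 RNAi (adjusted p = 0.0156, lost without Control RNAi replicate 2 or NF1 RNAi replicate 3) and 0.20 ± 0.05 with U0126 (adjusted p = 0.04, lost without any 1 of the 6 arrays).

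Other 60S members gave smaller or less certain values. Rpl28 had the largest fold change of all, −0.76 ± 0.12 with NF1 RNAi (adjusted p = 0.00174), but from a dim probe set. It read 5.94, 5.70 and 5.90 in NF1 RNAi + U0126 cells, 5.64, 5.71 and 5.41 in NF1 RNAi cells, and 6.44, 6.46 and 6.13 in Control RNAi cells. The control arrays were the 3 highest, and with NF1 RNAi + U0126 the difference from Control RNAi was −0.49 ± 0.12 (adjusted p = 0.00949). Rpl22, an RNA-binding member needed for T cell development in mice, differed by −0.32 ± 0.11 with NF1 RNAi (adjusted p = 0.0673, or 0.0124 with the replicate block, and 0.0124 to 0.207 over the 15 alternatives). Rpl13a, which in human monocytes leaves the ribosome to silence inflammatory mRNAs, differed by −0.13 ± 0.06 with NF1 RNAi (adjusted p = 0.144). Rpl7 differed by −0.11 ± 0.05 with NF1 RNAi (adjusted p = 0.178) and by 0.16 ± 0.05 with U0126 (adjusted p = 0.0881), while its second, dimmer probe set gave −0.02 and −0.11.

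**Figure D3:**
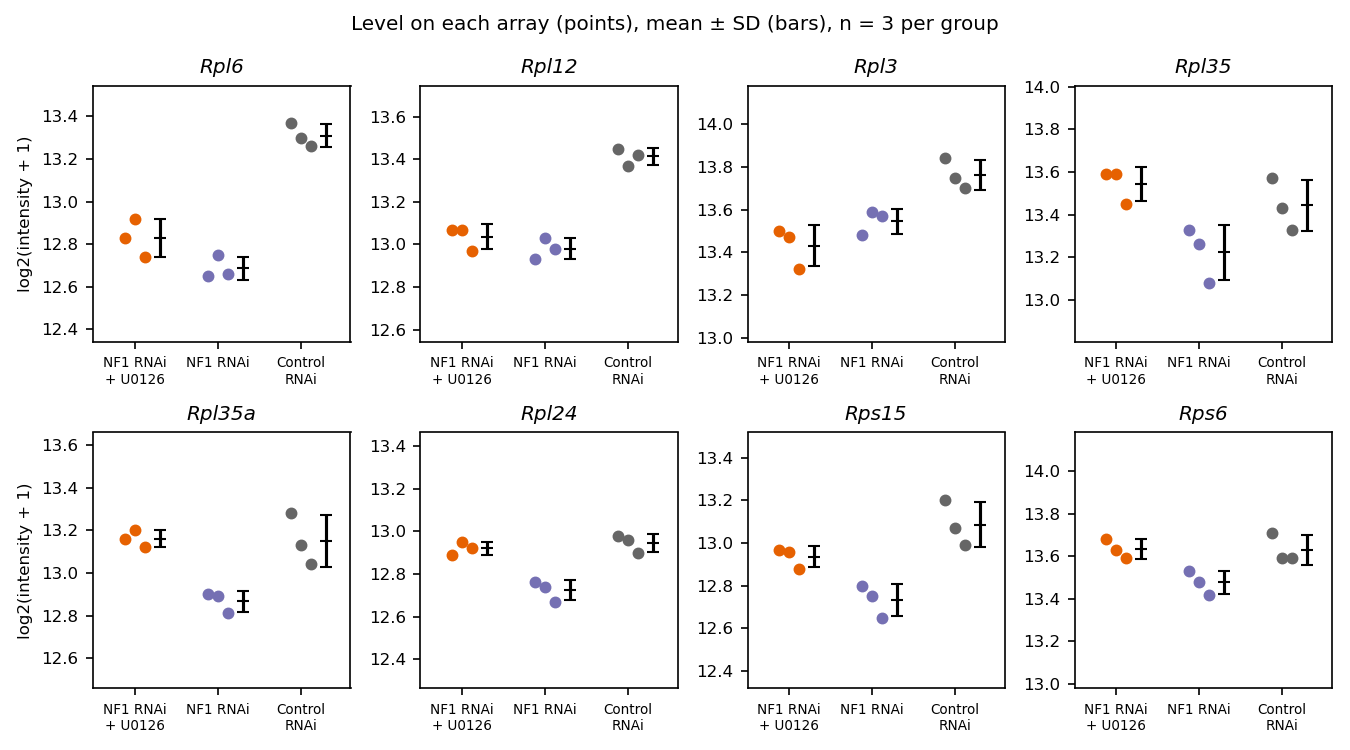
Points are the log2(intensity + 1) of 8 members on each array, with NF1 RNAi + U0126, NF1 RNAi and Control RNAi from left to right, and bars are the mean ± SD of 3 arrays. Rpl6 and Rpl12 stay below the control arrays with U0126, Rpl3 is lowest there, and Rpl35, Rpl35a and Rpl24 with U0126 lie in or near the control range. Each panel has its own axis, which does not start at 0.

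In the small subunit, Rps15, a protein of the 40S head whose tail reaches the decoding site, was among the clearest. It read 12.97, 12.96 and 12.88 in NF1 RNAi + U0126 cells, 12.80, 12.75 and 12.65 in NF1 RNAi cells, and 13.20, 13.07 and 12.99 in Control RNAi cells. The 3 groups did not overlap, with the U0126 arrays between the others. Rps15 fell by 0.35 ± 0.07 with NF1 RNAi (adjusted p = 0.00627). With U0126 it differed from NF1 RNAi by 0.20 ± 0.07 (adjusted p = 0.0953, or 0.0372 with the replicate block, and 0.0372 to 0.239 over the 15 alternatives) and from Control RNAi by −0.15 ± 0.07 (adjusted p = 0.136). Rps9, a protein of the 40S body, fell by 0.26 ± 0.05 (adjusted p = 0.00753), and Rps16, of the 40S head, differed by −0.21 ± 0.06 (adjusted p = 0.027, lost without replicate 1 of either group, Control RNAi replicate 2 or NF1 RNAi replicate 3), both with NF1 RNAi.

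Rps6, the protein that S6 kinases phosphorylate, was close to the median of the members. It read 13.68, 13.63 and 13.59 in NF1 RNAi + U0126 cells, 13.53, 13.48 and 13.42 in NF1 RNAi cells, and 13.71, 13.59 and 13.59 in Control RNAi cells. The NF1 RNAi arrays were the 3 lowest, but neither −0.16 ± 0.06 with NF1 RNAi (adjusted p = 0.0857) nor 0.16 ± 0.06 with U0126 (adjusted p = 0.116) passed. Against Control RNAi, the NF1 RNAi + U0126 cells differed by 0.00 ± 0.06. These are mRNA levels, and the arrays do not read phosphorylation of the protein.

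Relatives of standard members gave mixed values. Rps4y2, a relative of Rps4x, read 7.35, 7.37 and 7.27 in NF1 RNAi + U0126 cells, 7.35, 7.28 and 6.87 in NF1 RNAi cells, and 7.85, 7.63 and 7.72 in Control RNAi cells, with all control arrays above the rest. It differed by −0.56 ± 0.12 with NF1 RNAi (adjusted p = 0.00824) and by −0.40 ± 0.12 for NF1 RNAi + U0126 against Control RNAi (adjusted p = 0.0286, held only without Control RNAi replicate 2 among the 6 fits that leave out an array). Rps27l, a p53 target in human and mouse cells and a relative of Rps27, read 9.16, 9.01 and 9.12 in NF1 RNAi + U0126 cells, 9.0, 8.72 and 8.86 in NF1 RNAi cells, and 8.92, 8.84 and 8.95 in Control RNAi cells. It was the member with the highest value against Control RNAi when U0126 was present, and its U0126 arrays lay above all others. The difference from Control RNAi was 0.20 ± 0.08 (adjusted p = 0.0944, or 0.0339 with the replicate block, and 0.0288 to 0.27 over the 15 alternatives), and that from NF1 RNAi was 0.24 ± 0.08 (adjusted p = 0.0935, or 0.031 with the replicate block, and 0.031 to 0.341 over the 15 alternatives). Without Rps4y2, a choice made after seeing the data, 16 of 44 members fell with NF1 RNAi (36.4%, against 13.3% of all genes). For NF1 RNAi + U0126 against Control RNAi, 4 of 44 were lower (9.09%, against 17.6%). Rpl7l1, a relative of Rpl7 that the rule leaves out, gave 0.10 ± 0.07 with NF1 RNAi (adjusted p = 0.38) and 0.19 ± 0.07 for NF1 RNAi + U0126 against Control RNAi (adjusted p = 0.0724). Rpl26l1, a relative of Rpl26 also left out, gave 0.17 ± 0.09 with NF1 RNAi (adjusted p = 0.19) and was higher for NF1 RNAi + U0126 against Control RNAi, at 0.27 ± 0.09 (adjusted p = 0.0337, held in 2 of the 6 fits that leave out an array). Rpl39l1, a relative of Rpl39 that is left out too, lay between log2 3.90 and 4.36 and passed no test. Rack1, a scaffold protein of the 40S head with a symbol outside the rule, differed by −0.39 ± 0.08 with NF1 RNAi (adjusted p = 0.00618) and by 0.22 ± 0.08 with U0126 (adjusted p = 0.102, or 0.0261 with the replicate block, and 0.0261 to 0.253 over the 15 alternatives).

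The member symbols that lack a probe set of their own could be looked at only as a group. The 33 probe sets that list any member symbol together with other loci, many of them pseudogenes or copies of the same protein, had mean levels of log2 9.08 to 13.76. They were not limited to symbols without a probe set of their own, so some may also list one of the 45 members. With NF1 RNAi all 33 had negative differences from Control RNAi, with a median of −0.23 and a range of −0.51 to −0.08, and 12 passed as lower, against 9.84% of all probe sets. With U0126, 32 of 33 differed positively from NF1 RNAi, with a median of 0.19, but 0 passed (20 higher at unadjusted p under 0.05, limma, against 3423 of all 31042 probe sets), where 4.45% of all probe sets were higher. For NF1 RNAi + U0126 against Control RNAi the median was −0.04 and 1 passed as lower, against 13.9% of all probe sets. None of these probe sets was used to choose the 45 members, but they were measured on the same arrays.

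Members with and without the run exactly at their annotated start had similar medians. The 12 with a pyrimidine run at the annotated start had a median of −0.23 with NF1 RNAi and 5 of them fell, and the 28 without it had a median of −0.21 and 11 fell. Rpl35a and Rps15, printed above, have the run and were lower. Rplp0 has it and read −0.09. Of the 5 members that were lower in both groups with NF1 oligonucleotides, Rpl28, with the largest fall, has a run of 10 bases at the annotated start. Rpl12 and Rps4y2 have a run that begins within 5 bases of it, and Rpl6 and Rpl3 have none there. Of the 16 members with a sequence that fell with NF1 RNAi, 11 had a run that begins within 5 bases (68.8%). Of the 24 that were not called, 11 had it (45.8%). Whether these shares differ was not tested.

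Other bright genes had a median of the opposite sign with NF1 RNAi. The 357 genes outside the members with a mean of log2 12 or more, a set chosen after the values were seen, had a median of 0.07 with NF1 RNAi. Among them 36 were lower (10.1%) and 88 higher (24.6%), against 13.3% and 13.0% of all genes. The 38 members at that level had a median of −0.21, with 15 lower (39.5%) and 0 higher, and all 38 were negative. With U0126 against NF1 RNAi the medians were 0.16 in those members and −0.05 in the other bright genes. The difference between these sets was not tested.

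**Figure D4:**
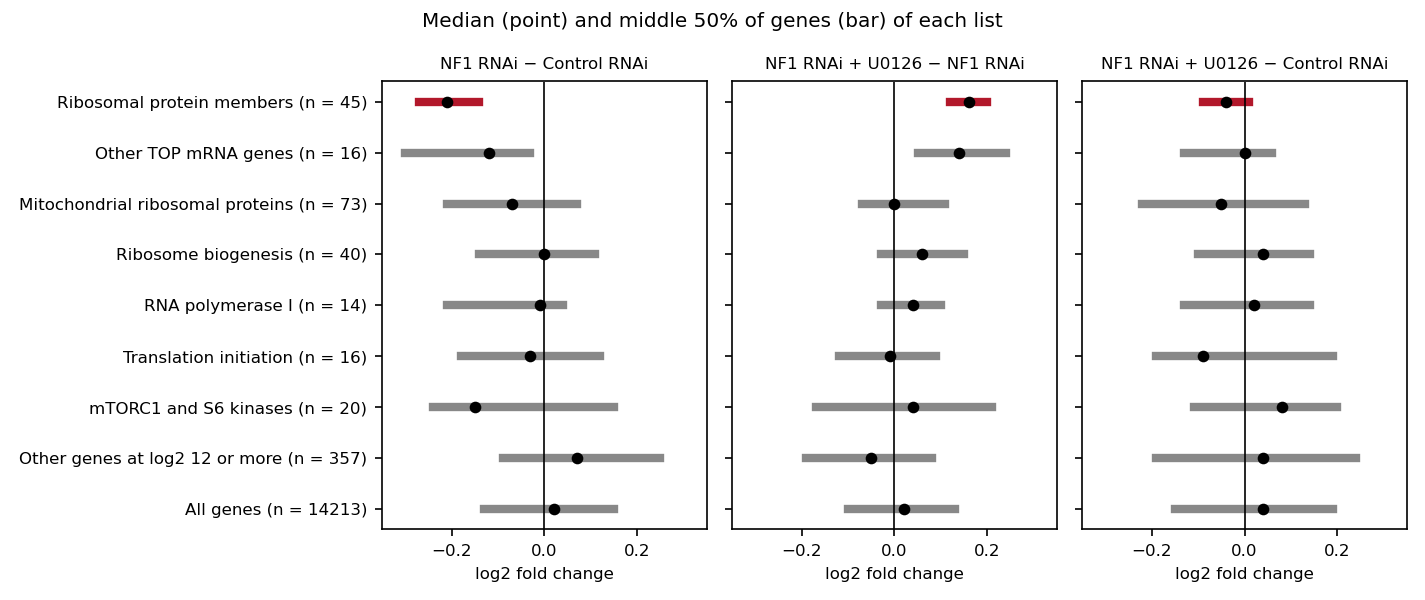
Points are the median log2 fold change of each gene list and bars the middle 50% of its genes, in the 3 comparisons. Ribosomal protein members have medians of −0.21, 0.16 and −0.04, other TOP mRNA genes −0.12, 0.14 and −0.00, and the mTORC1 and S6 kinase list −0.15, 0.04 and 0.08. The medians of the remaining lists lie between −0.09 and 0.07.

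Genes with related roles were read from lists, whose counts stand against 13.3% of all genes lower and 13.0% higher with NF1 RNAi, and 7.02% lower and 6.71% higher with U0126 against NF1 RNAi. Among 16 measured genes of other TOP mRNAs, mostly elongation and initiation factors, 14 had negative differences with NF1 RNAi and 15 had positive ones with U0126, with medians of −0.12 and 0.14. With NF1 RNAi 3 of them fell and 0 rose (18.8% lower). At unadjusted p under 0.05, limma placed 5 of the 16 lower and 0 higher, against 18.0% and 18.6% of all genes. With the replicate block 6 fell (37.5%, against 16.2% of all genes). The 3 were Cct4, a chaperonin subunit (−0.59 ± 0.07, adjusted p = 0.000572), Eif3f (−0.47 ± 0.08, adjusted p = 0.0034) and Eef1d, of the elongation factor 1 complex (−0.35 ± 0.07, adjusted p = 0.00585). With U0126 2 rose (12.5%), Eef1d by 0.27 ± 0.07 (adjusted p = 0.0306) and Eif3h by 0.25 ± 0.07 (adjusted p = 0.04), and with the replicate block 5 rose (31.2%, against 9.53% of all genes). Eef1d with U0126 was lost without NF1 RNAi replicate 1 or 3 or NF1 RNAi + U0126 replicate 2 or 3, and Eif3h held only without NF1 RNAi + U0126 replicate 3.

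The 73 mitochondrial ribosomal protein genes, whose products serve the ribosomes of mitochondria, went both ways. With NF1 RNAi 19 fell and 8 rose (26% and 11%, against 13.3% and 13.0% of all genes), with a median of −0.07. Mrpl23 fell by 0.48 ± 0.07 (adjusted p = 0.0012) and Mrps27 by 0.42 ± 0.09 (adjusted p = 0.00896), while Mrpl3 rose by 0.63 ± 0.09 (adjusted p = 0.00134) and Mrpl57 by 0.52 ± 0.06 (adjusted p = 0.000383). With U0126 against NF1 RNAi, 7 rose (9.59%) and 0 fell, against 6.71% and 7.02% of all genes, with a median of 0.00. At unadjusted p under 0.05, limma placed 10 of the 73 higher and 1 lower, against 14.1% and 13.2% of all genes. The largest rises were 0.49 ± 0.10 for Mrpl15 (adjusted p = 0.0102) and 0.49 ± 0.13 for Mrpl45 (adjusted p = 0.0382, held only without NF1 RNAi replicate 1 among the fits that leave out an array). The difference between mitochondrial and cytosolic genes was not tested.

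Lists of genes for ribosome assembly had medians near 0. Of 40 measured ribosome biogenesis genes, 5 fell (12.5%) and 2 rose (5%) with NF1 RNAi, with a median of −0.00. With U0126 2 rose (5%) and 0 fell, with a median of 0.06. At unadjusted p under 0.05, limma placed 9 of the 40 higher and 2 lower with U0126, against 14.1% and 13.2% of all genes. Bop1, needed to process the 60S rRNAs, fell with NF1 RNAi by 0.37 ± 0.06 (adjusted p = 0.00246), and Tsr1, of 40S maturation, rose by 0.42 ± 0.07 (adjusted p = 0.00277). Nob1, the nuclease that makes the final 18S rRNA end, rose by 0.39 ± 0.07 with U0126 (adjusted p = 0.00725). Of 14 genes of RNA polymerase I and its factors, which transcribe ribosomal RNA, 2 fell (14.3%) and 1 rose (7.14%) with NF1 RNAi and 2 rose (14.3%) with U0126. Rrn3, the initiation factor that links the polymerase to growth signals, differed by −0.47 ± 0.06 with NF1 RNAi (adjusted p = 0.000853) and by 0.58 ± 0.06 with U0126 (adjusted p = 0.000594). Its difference between NF1 RNAi + U0126 and Control RNAi was 0.11 (adjusted p = 0.219).

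Regulators of translation included larger single changes. Of 16 initiation genes, 4 fell and 4 rose with NF1 RNAi (25% each), and 1 rose and 1 fell with U0126 (6.25% each). Eif4ebp1 and Eif4ebp2, which block the cap-binding factor eIF4E until mTORC1 phosphorylates them, differed by −1.92 ± 0.08 (adjusted p = 4.98e-06) and −1.07 ± 0.16 (adjusted p = 0.00165) with NF1 RNAi, and by −1.83 ± 0.08 (adjusted p = 2.98e-06) and −0.86 ± 0.16 (adjusted p = 0.00311) for NF1 RNAi + U0126 against Control RNAi. Pdcd4, an inhibitor of the helicase eIF4A, rose by 0.30 ± 0.06 with NF1 RNAi (adjusted p = 0.0093), and fell by 0.35 ± 0.06 with U0126 (adjusted p = 0.00759). A broader list around mTORC1 and the S6 kinases also named RSK kinases, Rictor and Pdk1, which are not parts of mTORC1. Of its 20 measured genes, 4 fell (20%) and 3 rose (15%) with NF1 RNAi, and 1 fell (5%) and 3 rose (15%) with U0126. The list median was −0.15 with NF1 RNAi, with 11 genes negative and 9 positive, and 0.04 with U0126 against NF1 RNAi. Deptor, an inhibitor of mTOR, differed by −1.06 ± 0.09 with NF1 RNAi (adjusted p = 8.14e-05) and by a further −0.75 ± 0.09 with U0126 (adjusted p = 0.000823). Rps6kb1, the main S6 kinase gene, rose by 0.50 ± 0.09 with NF1 RNAi (adjusted p = 0.00385), and Rps6ka2, an RSK kinase, rose by 1.31 ± 0.16 with U0126 (adjusted p = 0.00118). Myc, which is outside the lists, differed by −0.73 ± 0.19 with NF1 RNAi (adjusted p = 0.019, lost without Control RNAi replicate 2 or 3). With U0126 it differed from NF1 RNAi by a further −1.24 ± 0.19 (adjusted p = 0.00313). Its part in the levels of the members was not tested. These lists hold members that promote translation and members that restrain it, so their counts carry no direction for the process.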

How the data were processed

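Total RNA of 9 cultures was hybridised to Affymetrix rat arrays. The authors made the deposited intensity values with RMA, per the submitters' processing notes; software, version and probe set definition: not given in the sources used here. RMA applies quantile normalization and summarises probes, so the background correction could not be varied, and a shift shared by all genes would not be seen. The deposited intensities are linear, from 5.62 to 25800.2, so log2(value + 1) was taken, which understates the change of dim genes. Arrays give no read depth, and their number limits the precision.

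Of 31099 probe sets, 57 controls were left out. Platform annotation, with symbols updated through RefSeq (GRCr8), paired 20826 with 1 gene, 436 with several and 9780 with none listed. Each gene was its brightest probe set of 1 gene; 40 members had 1, 4 had 2 and Rpsa had 3. No filter on low values was applied, so all 45 members were tested.

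The groups were fitted in limma 3.58.1 (R 4.3.3) as a group means model with 6 residual degrees of freedom, with Benjamini-Hochberg adjustment over 14213 genes; the fit was tested on simulated data. Python 3.11.15, pandas 2.3.3 and matplotlib 3.10.9 prepared tables and figures. The labels do not say what a replicate number marks. Deviations from group means correlated across genes in all 9 same-numbered pairs (r from 0.17 to 0.62, against −0.52 to 0.40 for 18 other pairs), so the fit with the number as a block is given where it changes a call. The members and lists were chosen with earlier results of these data known. Named members were, per comparison, up to 6 largest rises and falls among passing members whose arrays did not overlap, fixed members (Rps6, stalk, 5S particle, Rpl13a, Rps19 and pairs of relatives), and up to 4 passing genes per list; further members were named after their values were seen. Alternatives were the block, genes at log2 6 or more on at least 3 arrays, median centring, quantile normalization, averaged probe sets per gene, no pseudocount, only the 2 groups compared, and arrays left out.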

Additional observations from a re-analysis of the deposited data

How the results depend on the processing

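No named member that passed the test changed sign under these alternatives. The values of named members kept their side of the threshold in 632 cases, lost it in 40 and gained it in 15. For NF1 RNAi against Control RNAi the 17 members became 28 with the replicate block (62.2%, against 16.2%), 10 with median centring (22.2% of members and 10.9% of all genes lower, with 17.9% of all genes higher), 10 with all replicate 1 arrays left out (22.2%, against 14.0% of all genes), 7 with all replicate 3 arrays left out (15.6%, against 6.21%) and 7 to 18 with each array left out in turn, and the member median ran from −0.24 to −0.15 in the last. For NF1 RNAi + U0126 against NF1 RNAi the 3 members became 15 with the replicate block (33.3%, against 9.53%) and 6 with the filter on dim genes (14.3%, against 9.86%). They became 5 with median centring (11.1%, against 7.28%) and 5 with quantile normalization (11.1%, against 7.22%). The count was 0 with all replicate 3 arrays left out (against 1.69%) and 0 to 2 with each array left out, with medians of 0.13 to 0.20 in the last. With all replicate 3 arrays left out, 12 members (26.7%) were higher at unadjusted p under 0.05 (limma), against 11.1% of all genes. For NF1 RNAi + U0126 against Control RNAi the count was 4 to 5 with each array left out and the median −0.07 to 0.01; median centring gave a median of 0.04, and 26.3% of all genes higher against 14.3% lower. The block changed no call there except Rps27l, which passed as higher. Leaving out arrays also leaves fewer samples; the cause of the other differences was not tested. Leaving out all replicate 3 arrays was chosen after seeing the data. The 4 members below log2 6 are limited by their dim signal.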
